A study of Mus musculus with 24 samples.

Results

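Rad21 is the subunit that closes the cohesin ring, and the 4 libraries described here measure where it sat on chromatin before and after it was degraded on demand. They are 4 of the 24 samples of the series, chosen by their titles: chromatin immunoprecipitation with sequencing (ChIP-seq) with a Rad21 antibody in a Rad21-degron line, 2 libraries without IAA and 2 with IAA. The line is a v-Abl transformed mouse pro-B cell line with the genotype Rad21degron, Emu-Bcl2, RAG2 deficient. All 4 cultures received STI-571, an Abl kinase inhibitor also known as imatinib, at 3 µM for 4 days. The treated cells were given the auxin IAA at 500 µM for 6 h beforehand, and IAA stayed in the medium during STI-571. By their titles, all 4 libraries also contain spiked-in cells of HCT116, an established human colorectal carcinoma line, for which no degron is named. The labels do not say whether the line is 1 clone or whether replicates were separate cultures, so p-values measure only the spread between these libraries. Peak lists hold no expression values, so the pro-B identity of the cells was not checked here.

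Cohesin is a ring of Smc1a, Smc3, Rad21 and a Stag subunit that entraps DNA and extrudes it into loops. Extruding cohesin stops at CTCF bound in a particular orientation, so Rad21 ChIP peaks mark mainly CTCF sites, with a smaller share at promoters and enhancers. In pro-B cells, loop extrusion brings distant V segments of the immunoglobulin heavy-chain locus (Igh) to the recombination centre where RAG acts. A degron is a protein tag that recruits a ubiquitin ligase in the presence of auxin, and the fusion protein is then destroyed by the proteasome. v-Abl lines arrest in G1 when Abl is inhibited, and RAG-deficient derivatives do so without cutting their receptor loci.

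A control site is a merged interval of overlapping mouse peaks with a peak in both libraries without IAA. There were 18740 such sites, out of 35730 merged intervals with a peak in either library. Kept means that an IAA library has a peak sharing 1 bp or more with the site, and lost that it has none. Human peaks, on contigs named for the build hg19, gave 9276 control sites by the same definition and served as an internal control in the same tubes. Fold enrichment is the value the authors' peak caller gave each peak. It is used to rank peaks within a list, as a percentile, and differences in it between lists are not read as changes.

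To show the CTCF motif within lost sites, the sequences of strong lost sites that hold a match were chosen; most control sites hold none, as counted further on. Below are 60 bases around the CTCF core motif, searched on both strands as CCA, any 2 bases, AG, any 2 bases and GGC, at the 6 highest-ranked lost sites with a match that overlap no exon and have a single-copy centre. Each is read from the reference NCBIM37 (mm9) 5′ to 3′ on the strand that carries the motif, with the match in capitals.
Mcoln2 intron, chr3:145841031-145841090, minus strand: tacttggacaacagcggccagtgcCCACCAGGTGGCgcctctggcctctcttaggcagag
Pou2f2 intron, chr7:25890945-25891004, plus strand: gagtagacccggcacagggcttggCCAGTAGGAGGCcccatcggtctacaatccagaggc
Mrc1 intron, chr2:14217214-14217273, minus strand: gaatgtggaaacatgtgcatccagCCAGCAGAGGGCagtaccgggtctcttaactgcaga
AI467606 flank, chr7:134248239-134248298, minus strand: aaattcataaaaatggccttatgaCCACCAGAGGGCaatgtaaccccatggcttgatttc
Ppp1r8 flank, chr4:132379647-132379706, minus strand: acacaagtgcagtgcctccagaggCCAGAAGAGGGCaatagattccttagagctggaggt
Tmem170b flank, chr13:41667602-41667661, minus strand: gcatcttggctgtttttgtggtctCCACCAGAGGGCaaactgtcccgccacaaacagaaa
All 6 lost their Rad21 peak in both IAA libraries, and each lies at a CTCF site of the parental line. Flank marks an intergenic site, named by the nearest protein-coding gene.

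Kept sites were chosen without regard to the motif, so the sets are not compared for it. The 60 bases at the centre of 2 of the highest-ranked kept sites, and of 1 site each from the repeat-rich stretches of chromosomes X and 8 described further on, are shown on the plus strand. Capitals mark the central 31 bases whose copies in the reference were counted. The last pair was chosen after the values had been seen.
Chl1 intron, chr6:103599136-103599195: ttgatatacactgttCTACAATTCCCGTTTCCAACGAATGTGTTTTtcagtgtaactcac
Gm5614 flank, chr9:35112961-35113020: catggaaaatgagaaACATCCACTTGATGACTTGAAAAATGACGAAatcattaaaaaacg
Gm17379 intron, chrX:166438208-166438267: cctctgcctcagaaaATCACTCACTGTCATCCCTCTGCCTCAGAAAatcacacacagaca
4930467E23Rik flank, chr8:19707220-19707279: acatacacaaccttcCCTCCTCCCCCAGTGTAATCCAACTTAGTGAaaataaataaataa
The marked bases of the Gm17379 site occur 12 times in the reference and those of the 4930467E23Rik site 3 times. At the Chl1 and Gm5614 sites the marked bases are single-copy, but 52.2% and 45.9% of the 31-base windows across the whole site occur more than once.

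With IAA, most Rad21 peaks of the mouse genome disappeared while human peaks in the same libraries fell far less. Mouse peaks numbered 32913 and 22085 in replicates 1 and 2 without IAA, and 3588 and 1384 with IAA. Both IAA libraries lie below both libraries without it, and replicate 1 holds more mouse peaks than replicate 2 in each condition. The difference of the mean log2 peak numbers, called the log2 change here and for the values that follow, was -3.60 (two-sided exact permutation p = 0.333, which is as low as 4 libraries can give). Human peaks numbered 11861 and 14878 without IAA and 5603 and 5481 with IAA, a log2 change of -1.26 (exact permutation p = 0.333). The human groups also did not overlap.

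Read against the human peaks of the same library, the mouse loss remained. There were 2.77 and 1.48 mouse peaks per human peak without IAA, and 0.640 and 0.253 with IAA. All 4 values are ordered by condition, and the log2 change was -2.34, or 5.05-fold fewer (exact permutation p = 0.333). In the same-numbered pairs the ratio fell 4.33-fold and 5.88-fold. The human share of all peaks rose from 26.5% and 40.3% to 61.0% and 79.8%.

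With each list cut at the p-value that leaves equal numbers of human peaks, the log2 change in mouse peaks was -2.54. Read depths and the human share of the input reads were not analysed here, so how far sensitivity differed between the libraries was not tested.

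**Figure D1:**
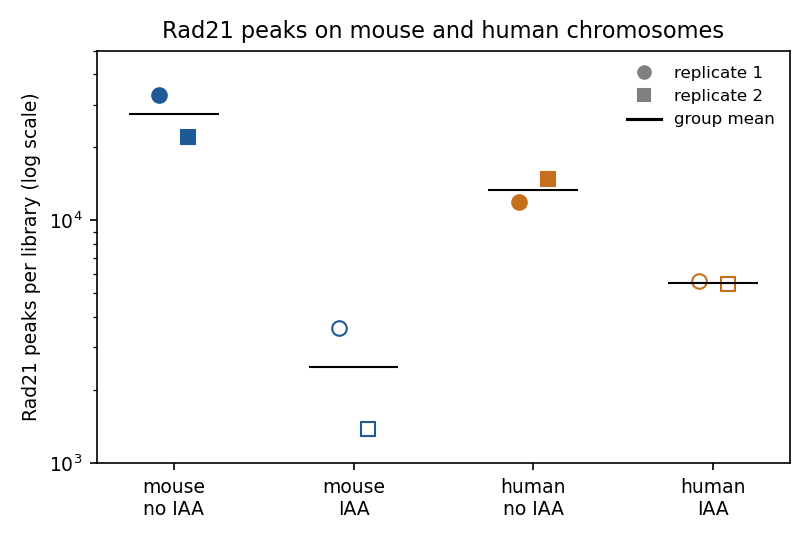
Rad21 peaks per library on mouse (blue) and human (orange) chromosomes, on a log axis, with filled symbols for libraries without IAA, open symbols for libraries with IAA and bars at group means. Mouse peaks go from 32913 and 22085 to 3588 and 1384, and human peaks from 11861 and 14878 to 5603 and 5481.

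Covered mouse length was 9.83 and 5.69 Mb without IAA and 1.11 and 0.624 Mb with IAA. Median mouse peak width was 241 and 208 bp without IAA and 162 and 169 bp with IAA. The mean width was 299 and 258 bp without IAA and 309 and 451 bp with IAA. Mouse peaks of 1 kb or more numbered 435 and 171 without IAA and 104 and 82 with IAA. Wide peaks were therefore fewer with IAA, but they were a larger share of the mouse peaks. Those totalled 32913 and 22085 without IAA and 3588 and 1384 with IAA. Wide control sites were kept more often than narrow ones. The widest class of control sites, with a median of 972.5 bp, was kept at 25.1% and 14.5% in replicates 1 and 2. The narrowest class, with a median of 160 bp, was kept at 4.41% and 2.58%. A wider site also offers more bases for the 1-bp overlap that counts as kept, and this was not tested by width. The lists began at different values: the lowest fold enrichment listed was 3.65 and 3.80 without IAA and 4.43 and 4.38 with IAA.

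Site by site, replicate 1 with IAA kept 1320 of the 18740 mouse control sites, or 7.04%, with 93% lost. Replicate 2 kept 568, or 3.03%, with 97% lost. Either library kept 1385 sites, or 7.39%. A total of 17355 sites, which is 92.6% of the control sites tested, were lost in both IAA libraries. Both kept 503 sites, or 2.68%. The sites kept in replicate 2 were mostly a part of those kept in replicate 1: 88.6% of the former were kept in both, against 38.1% of the latter. For comparison, 57.3% of the peaks of replicate 1 without IAA overlapped a peak of replicate 2, and 86.7% the other way round.

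Human control sites were kept at 50.7% and 48.7% in the same libraries, and 34.6% of them were lost in both. The human percent exceeded the mouse percent by 43.7 and 45.7 points (mean 44.7 ± 1.40, SD, n = 2; exact permutation of signs, p = 0.5, as low as a pair of libraries can give). The difference depends on how a kept site is counted: it was 16.8 points when at least 50% of a site had to be covered, and 25.8 points for sites of at least 1 library without IAA. In both settings the human sites were kept more often.

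The relation to peak strength differed between the genomes of the 2 species, with a steady rise for human sites and none for mouse sites. Sites were divided into 10 equal groups by their mean percentile rank of fold enrichment without IAA. Human sites were kept at 17.4% and 18.4% in the lowest decile and at 93.2% and 88.5% in the highest, with an increase at every step in both libraries. Of mouse sites, 10.99% and 4.22% were kept in the lowest decile, 2.56% and 1.12% in the ninth and 4.48% and 3.15% in the highest. Highest minus lowest decile came to 75.8 and 70.0 points for human sites and to -6.51 and -1.07 points for mouse sites in the 2 IAA libraries.

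**Figure D2:**
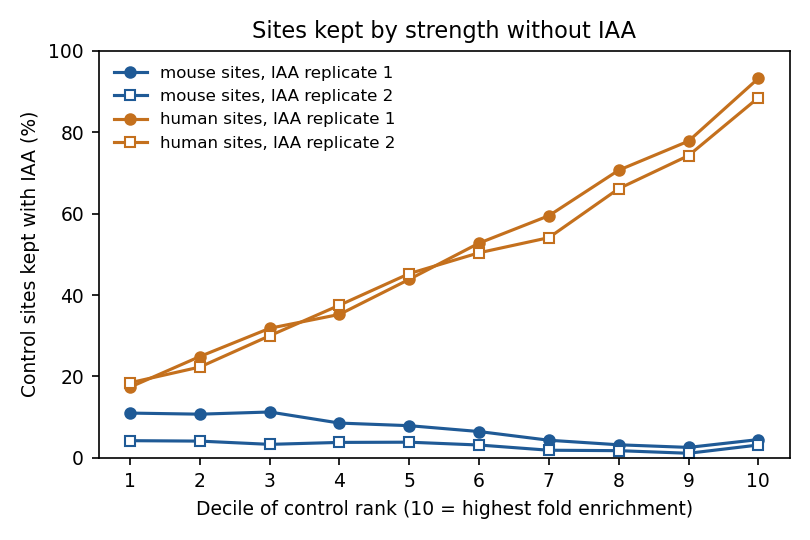
Percent of control sites with a peak in each IAA library, by decile of control rank (10 is the highest fold enrichment), for mouse (blue) and human (orange) sites, with a line per library. The human lines rise from about 18% to 93.2% and 88.5%, while all mouse values lie between 1.12% and 11.3%.

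The control sites were mainly CTCF sites away from genes' starts. Of the 18740 sites, 15157 overlapped a CTCF site of the parental line, meaning an interval with a CTCF peak in each of 3 parental CTCF libraries. Position was taken from GENCODE vM1 for the 17800 sites on autosomes and X other than chromosome 12, whose sequence is a hybrid. Of these, 2760 lay within 1 kb of a protein-coding transcript start, called promoter sites, and 14262 lay more than 1 kb from any transcript start, called distal. A further 778 were near other transcript starts. By overlap, 3526 touched an exon, 5965 lay in introns and 8309 were intergenic.

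Distal sites were lost almost throughout, and promoter sites less often. In replicates 1 and 2 with IAA, distal sites were kept at 4.31% and 2.52% and promoter sites at 20.3% and 4.53%. In both libraries the promoter value is the higher, but the difference was 15.9 points in replicate 1 and 2.005 points in replicate 2 (mean 8.97 ± 9.85, SD, n = 2; exact sign-flip permutation p = 0.5, the smallest possible). Replicate 1 therefore decides the size of this difference. The mean was 1.15 points when at least 50% of a site had to be covered and 2.44 points at a q-value of 0.001 or less. With 50% coverage, the 2 libraries did not both show the higher value at promoters. The same library had 1694 of its 3409 annotated mouse peaks at promoters, or 49.7%, against 23.9% in replicate 2 with IAA and 20.8% and 17.6% in the libraries without IAA.

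**Figure D3:**
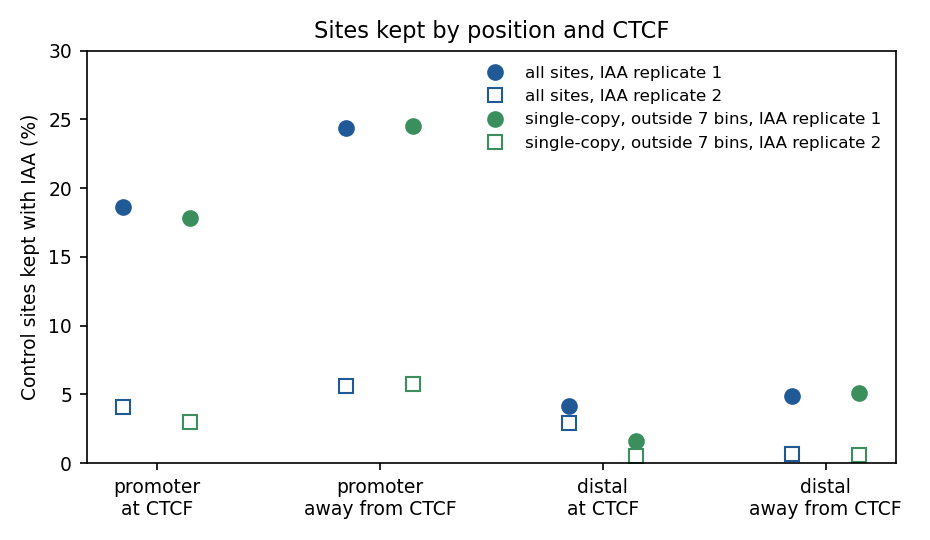
Percent of control sites kept in IAA replicate 1 (filled circles) and replicate 2 (open squares), by promoter or distal position and by overlap with a parental CTCF site, for all sites (blue) and for single-copy sites outside 7 bins of 1 Mb that kept most of their sites (green). Promoter sites in replicate 1 stand highest, at 18.7% and 24.4%, and single-copy distal CTCF sites lowest, at 1.65% and 0.501%.

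Over all control sites, presence of CTCF did not separate kept from lost sites in the same direction in both libraries. Sites at CTCF were kept at 6.50% and 3.35% and sites away from CTCF at 9.35% and 1.67%, in replicates 1 and 2. The difference was -2.85 points in replicate 1 and 1.68 points in replicate 2 (mean -0.59 ± 3.20, SD, n = 2; exact sign-flip permutation p = 1). The sign of the mean reversed under 6 other settings. Sites at CTCF had the higher control rank, with a median percentile of 68.0 against 36.4. In the strongest quartile of rank, 4674 sites were at CTCF and 11 away from it. Among the former, 3.34% and 2.01% were kept, and of the 11 others 2 and 1. In the lowest quartile, 2568 sites at CTCF were kept at 12.9% and 5.96% in replicates 1 and 2. The 2117 sites away from CTCF there were kept less often in both, at 8.97% and 1.61%. In quartile 2 the direction differed between the libraries (8.46% and 4.46% against 9.29% and 1.46%). In quartile 3, sites at CTCF were kept less often in both (4.58% and 2.37% against 11.99% and 2.74%). Single-copy distal CTCF sites outside the 7 bins that kept most of their sites, described further on, numbered 10978 and were kept at 1.65% and 0.501%. Their counterparts away from CTCF were kept at 5.08% and 0.629%. For all annotated sites with a single-copy centre, the difference was -5.42 points in replicate 1 and -0.583 points in replicate 2. Its mean was -3.00 ± 3.42 (SD, n = 2, exact sign-flip permutation p = 0.5, the smallest possible). There, sites at CTCF were kept less often in both libraries, a restriction chosen after the values had been seen.

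Among lost distal sites at CTCF, the strongest lie beside genes with roles in B cells and elsewhere. Their overlap with a CTCF site of all 3 parental CTCF libraries follows from how this class was defined. The distal site beside Arid3a, a DNA-binding factor of the Igh enhancer region, spans chr10:79387723-79388642, with a fold enrichment of 16.5 and 16.7 in the libraries without IAA. The intronic site of Pou2f2, which encodes the octamer-binding factor Oct-2, spans chr7:25890734-25891247, with 16.5 and 13.8. An intronic site of Grb10, an imprinted adaptor gene, spans chr11:11873193-11874066, with 17.0 and 12.8. The other distal CTCF sites named by the ranking rule were in introns of Mcoln2, which encodes a lysosomal channel, and Mrc1, the mannose receptor gene, and beside AI467606. Across these 6 sites the fold enrichment ran from 12.4 to 17.98 in the libraries without IAA, and no peak was called with IAA.

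At promoters with CTCF, the strongest lost sites were at Cirbp, Ccdc110, H2-DMa, Fmnl3, Dusp23 and Lif, with fold enrichments from 10.7 to 13.8. Cirbp encodes a cold-inducible RNA-binding protein, H2-DMa a chaperone that loads peptides onto MHC class II, Fmnl3 an actin-nucleating formin and Lif a cytokine. The Cirbp site, chr10:79627545-79628328, lay 402 bp from the transcript start, with 13.4 and 13.1. The H2-DMa site, chr17:34272095-34272563, covered the start, with 13.8 and 10.9.

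Away from CTCF, the strongest lost sites were weaker. Promoter sites of this kind at Bank1, Tbl1xr1, Zfp846, Nedd9, Ect2l and Tmem55b had fold enrichments from 4.38 to 6.14. Bank1 encodes a scaffold of B-cell receptor signalling and Tbl1xr1 a subunit of corepressor complexes. At the Bank1 start, chr3:135988697-135989456, the values were 6.02 and 5.08. Distal sites away from CTCF, nearest to Klhl1, Cenpe, Dach1, Gm10293, Tecrl and Spef2, had values from 5.67 to 8.56. Of these 12 sites, 6 had a peak in 2 or more of the 3 parental CTCF libraries without being CTCF sites by the definition above, so being away from CTCF is not the same as lacking it.

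Genes of 5 lists were examined for control sites within 5 kb of the gene body: 84 of 86 genes matched the annotation as protein-coding, 65 had a site, and the sites numbered 185. Of these, 175 were lost in both IAA libraries, which is 94.6% against 92.7% of all annotated control sites, so the lists lie close to the background. The 10 sites that were not lost were all kept in replicate 1 and none in replicate 2, and 7 of them covered a transcript start. Among all 1295 annotated control sites kept in either library, 598 lay within 1 kb of a protein-coding transcript start.

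Near the cohesin ring subunits and regulators, 18 of 20 sites were lost, at 10 of 17 genes. The Smc3 gene, for a core arm of the ring, had 3 sites, all lost, the strongest at chr19:53674320-53674637 with a fold enrichment of 6.57 and 5.97 without IAA. Pds5a and Pds5b, whose products regulate release of the ring from DNA, had 2 and 3 sites, all lost. Nipbl, for the cohesin loader, had 1 site, also lost. Ctcf and Stag1 each had 1 site kept in replicate 1 and 1 lost. The kept sites covered their starts, and replicate 1 with IAA listed them at a fold enrichment of 5.38 for Ctcf and 4.87 for Stag1. Rad21 itself had no control site within 5 kb.

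Near the B-lineage transcription factors, 67 of 70 sites were lost, at 17 of 18 matched genes. Spib and Sfpi1, both Ets-family factors, had 2 sites each, all lost. The strongest site within 5 kb of Spib had a fold enrichment of 10.5 and 8.12, and that of Sfpi1, the PU.1 gene, 11.5 and 7.81. Bach2, a repressor expressed in B cells, had 9 sites, all lost. Ebf1, a factor that specifies the B lineage, had 12 sites, 11 of them lost. Pax5, which maintains B-cell commitment, and Runx1 had 7 each, 6 of them lost. The kept sites of Ebf1 and Runx1 covered transcript starts, and that of Pax5 lay 4857 bp from one.

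Near the pre-B receptor and surface genes, 34 of 37 sites were lost. Cd24a, a surface glycoprotein gene of early B cells, had its strongest site at chr10:43294553-43295344, with a fold enrichment of 10.2 and 9.01. Flt3, a cytokine receptor gene of early progenitors, had 4 sites and Blnk, an adaptor of pre-B receptor signalling, also 4, all lost. The sites not lost lay within 5 kb of Ptprc, Cd79b and Cd72, the last at the start of its neighbour Tesk1.

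Near the genes of V(D)J recombination and end joining, 18 of 19 sites were lost. Rag1, for the catalytic subunit of the recombinase, had 3 sites, all lost, the strongest at chr2:101493023-101493377 with 8.72 and 6.15. Xrcc5, for the Ku80 subunit, had 2 sites, Xrcc6, for Ku70, had 4 and Nbn, a DNA-break sensor gene, had 2, all lost. Lig4, for the ligase of end joining, had 1 site at its start, kept in replicate 1 alone. Near the genes of Abl and STAT5 signalling, cell cycle and survival, 38 of 39 sites were lost. The D-type cyclin genes Ccnd2 and Ccnd3 had 2 sites each, Bcl2l1, for the survival protein Bcl-xL, had 3 and Cish, a STAT5 target, had 2, all lost. The site not lost covered the start of Bcl2l11, for the pro-apoptotic protein Bim, with 9.49 and 8.21 without IAA and 5.16 in replicate 1 with IAA.

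The core motif was far more common in control sites than in nearby sequence. A match lay within 5951 of the 17800 annotated sites, or 33.4%, against 3.84% of intervals of the same length 5 kb downstream. The share was 40.8% at CTCF sites and 2.21% away from them, and it rose from 18.1% in the lowest quartile of control rank to 45.99% in the highest, where sites are also wider (median 493 against 301 bp). Sites with a match were kept at 1.39% and 0.605% in replicates 1 and 2, and sites without a match at 9.72% and 4.12%. The difference was -8.33 and -3.51 points (mean -5.92 ± 3.404, SD, n = 2; exact sign-flip permutation p = 0.5, the smallest possible). A match describes letters in the window and does not show binding.

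The position of Rad21 peaks relative to the motif was read from the peak centres. For the 5673 motifs that were the only match in a control site at CTCF, Rad21 peak centres without IAA leaned to the 3′ side. In replicates 1 and 2, 63.7% and 62.3% of centres lay there, with median offsets of 17 and 12 bp. Parental CTCF peaks over the same motifs leaned to the 5′ side, with median offsets of -9, -17.5 and -16 bp. Of their centres, 44.0%, 39.9% and 39.6% lay on the 3′ side. The medians of the groups did not overlap. Their means were 14.5 ± 3.54 bp (SD, n = 2) and -14.2 ± 4.54 bp (SD, n = 3), a difference of 28.7 bp (exact permutation p = 0.1, two-sided, the lowest possible). Rad21 of the parental line had medians of 24, 19.5 and 20.5 bp, also on the 3′ side. With IAA, only 43 and 23 of these motifs were under a Rad21 peak, in replicates 1 and 2.

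**Figure D4:**
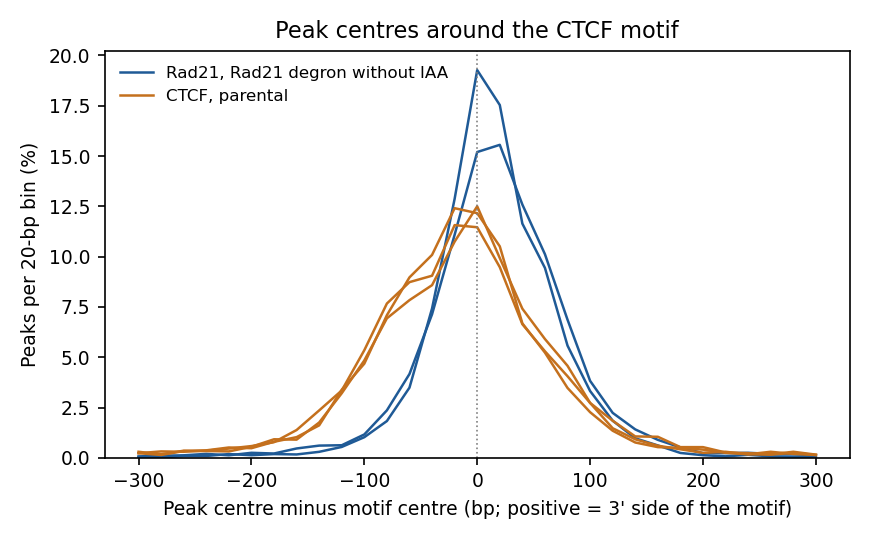
Distance from the centre of the CTCF core motif to the centre of the peak over it, in 20-bp bins, with positive values on the 3′ side of the motif, for Rad21 without IAA (blue, 2 libraries) and parental CTCF (orange, 3 libraries). The Rad21 curves lean to the right of 0, with medians of 17 and 12 bp, and the CTCF curves to the left, with medians from -17.5 to -9 bp.

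The sites that kept a called Rad21 peak were not spread evenly over the genome. Over 20 chromosomes, the autosomes and X, 18 kept 0.688% to 3.24% of their control sites in replicate 2. Chromosome 8 stood at 17.3% and 12.1% in replicates 1 and 2, and X at 29.8% and 28.5%. On X, 147 and 141 of 494 sites were kept, so the libraries nearly coincide there, whereas on chromosome 10 they were 68 and 8 of 1162.

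**Figure D5:**
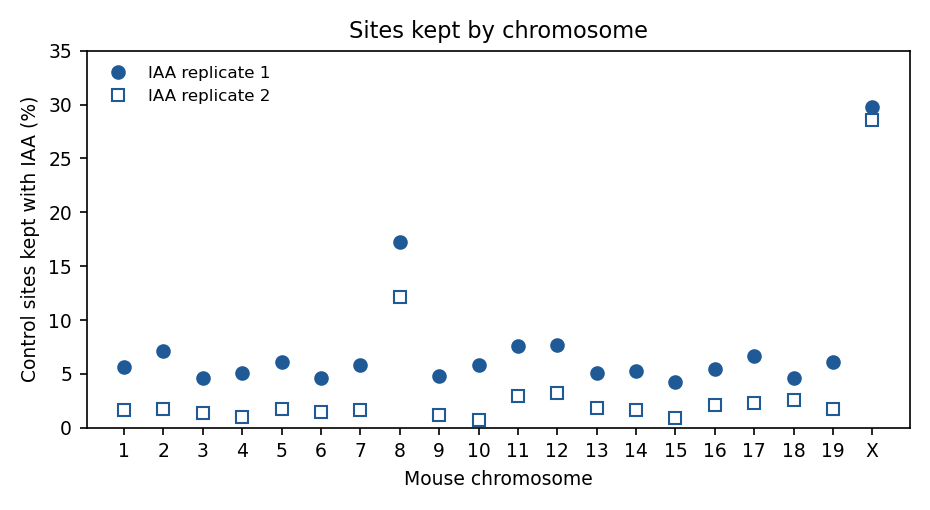
Percent of control sites kept in IAA replicate 1 (filled circles) and replicate 2 (open squares) on each mouse autosome and X. Chromosomes 8 and X stand above the others in both libraries, at 12.1% to 17.3% and 28.5% to 29.8%.

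Most of that excess lay in a few stretches. In 1-Mb bins with at least 10 control sites, 7 of 779 bins kept 50% or more of their sites in both IAA libraries. These bins were picked for their kept sites, so their values are a description. They lie on X at 120 to 123 Mb and at 166 Mb, on chromosome 8 at 19 to 21 Mb and on chromosome 11 at 3 Mb. Together they hold 295 sites, or 1.57% of control sites, and 255 of the 503 sites kept in both libraries, or 50.7%. The bin on X at 120 Mb, beside predicted genes such as Gm17521 and Gm17503, kept 54 of 57 sites in both libraries. The first bin on chromosome 8, beside Defb3 and Defb7, which encode antimicrobial beta-defensins, kept 78 of 93. The bin on chromosome 11, beside genes such as Sfi1, kept 29 of 41.

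Repeated sequence marked most of these bins. In 238 of the 295 sites, at least 50% of the 31-base windows occur more than once in the reference, and they are part of the 807 such sites among all 17800 annotated ones. On chromosome 11 only 6 of the 41 sites did so. Parental CTCF sites overlapped 291 of the 295 sites, while 25 hold the core motif. Outside the bins, X kept 3.70% and 3.13% of 351 sites and chromosome 8 kept 6.79% and 1.54% of 781.

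Over the whole annotated set, sites in which 50% or more of the windows are multi-copy were kept at 43.5% and 39.2%. Sites with no multi-copy window were kept at 5.13% and 0.816%. Mouse peaks with a multi-copy centre made up 6.47% and 6.52% of the lists without IAA, and 31.4% and 58.8% of the lists with IAA. The part of repeated sequence in the kept calls was not tested further.

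Single-copy sites outside the bins numbered 16724, of which 117 were kept in both IAA libraries. Promoters held 62 of the 117 and distal sites 52, out of far fewer promoter than distal sites. Both libraries kept 39 of 1921 promoter sites at CTCF and 23 of 743 away from it. Of distal sites they kept 47 of 10978 at CTCF and 5 of 2384 away from it. The 4 highest-ranked single-copy kept sites, near Chl1, Gm5614, Gm10800 and Pak3, had fold enrichments from 151 to 2280 without IAA. That is far above the 12.4 to 17.98 of the strongest lost distal CTCF sites. With IAA the Chl1 site was listed at 4125 and 3303 in replicates 1 and 2, and it had a peak in every parental CTCF and Rad21 library as well. Between 40.0% and 52.2% of the windows of these 4 sites occur more than once in the reference.

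Few mouse sites appeared in both IAA libraries where neither library without IAA had a peak. In the single IAA lists, 2267 of 3588 and 876 of 1384 mouse peaks overlapped a peak without IAA, or 63.2% and 63.3%. The remaining peaks of each list overlapped none. The 2 IAA lists merged into 3994 mouse sites, of which 830 had a peak in both. Of these, 633 overlapped a peak of at least 1 library without IAA, and 197, or 4.93% of the merged sites, overlapped none. A parental Rad21 peak lay at 183 of these 197 gained sites, and 163 overlapped a parental CTCF site. Among the 188 annotated gained sites, 136 had a multi-copy centre and 28 lay at promoters. Among the highest-ranked single-copy gained sites were those near Speer4e, Dhrs11 and Myo3a, with fold enrichments from 5.22 to 7.84 in the IAA lists. Parental Rad21 peaks lay at each of them, in all 3 libraries at Speer4e and Dhrs11 and in 1 at Myo3a. At the Speer4e and Myo3a sites, 56.7% and 81.3% of the 31-base windows occur more than once. With 1 library left out, the number of gained sites ranged from 236 to 1321, the highest without replicate 2 with IAA.

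Most control sites also had Rad21 in the parental line, genotype Emu-Bcl2, RAG2 deficient, given the same STI-571 treatment without IAA. Parental Rad21 libraries 1, 2 and 3 had a peak at 98.9%, 95.3% and 85.8% of the 18740 sites. No parental library had a peak at 193 of the control sites. A further 15997 had one in all 3 parental libraries, and these were kept with IAA at 6.201% and 2.50%. By the titles, replicate 1 of the parental and of the CTCF-degron libraries had no spike-in.

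CTCF-degron cells, genotype CTCFdegron, Emu-Bcl2, RAG2 deficient, received IAA and STI-571 as above, and Rad21 peaks at the same sites were more numerous there. The 3 libraries had a Rad21 peak at 60.4%, 56.7% and 37.7% of the 18740 sites, all above the 7.04% and 3.03% seen with Rad21 degraded. The sites were chosen on Rad21-degron libraries and the line differs, so the difference was not tested. At CTCF sites, 34.2% had a Rad21 peak in all 3 CTCF-degron libraries, and away from CTCF 49.5% did. No peak in any of the 3 was found at 43.2% of sites at CTCF and at 12.3% away from it. The nearest measure with Rad21 degraded is loss in both libraries, at 93.3% and 89.8% of the same site classes.

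The sites that kept a peak with Rad21 degraded mostly had one in CTCF-degron cells too. Of the 503 sites kept in both Rad21-degron IAA libraries, 99.4%, 99.4% and 86.1% had a peak in CTCF-degron libraries 1, 2 and 3, against 57.3%, 53.3% and 33.8% of the lost sites. Conversely, among the 6985 control sites with no Rad21 peak in any CTCF-degron library, 2 were kept in replicate 1 with IAA. None of them was called in replicate 2.

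In the window from 110 to 120 Mb of chromosome 12 that contains Igh in the hybrid sequence, 420 and 324 Rad21 peaks were called without IAA and 58 and 40 with IAA. Of 251 control sites in the window, 34 and 21 were kept, or 13.5% and 8.37%, and 84.5% were lost in both libraries against 92.6% of all sites. Sequence copies were not counted on chromosome 12.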

How the data were processed

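Each ChIP library has its own deposited broadPeak list. The labels name a hybrid of mm9 and another sequence entry as the alignment target. Bowtie2 2.2.8, SAMtools 1.8 and the builds mm9 and hg19 are named in the submitters' processing notes. The peak caller, its threshold and the use of inputs are not given in the sources used here. In the deposited lists, column 7 was read as a fold enrichment (a linear ratio), column 8 as the -log10 p-value and column 9 as the -log10 q-value. The lists carry peaks without reads, so library depth is unknown here. Fewer peaks can reflect less Rad21 or lower sensitivity. Lists of 16 samples exist; the 8 inputs and the CTCF lists after CTCF depletion were not used.

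Peaks were merged on an overlap of at least 1 bp and compared with scripts in Python 3.11.15 (NumPy 2.4.6, pandas 2.3.3, pysam 0.24.0), which were checked on simulated lists. Groups were compared by exact permutation tests over libraries. Peak ends lay within the NCBIM37 reference on 21 of 22 chromosomes and beyond it on chromosome 12, which was left out of annotation, motif and copy counts. Copies are exact matches of 31 bases on either strand. Named sites are, in each of 4 classes, the 6 lost single-copy sites of highest mean rank, off chromosomes 12 and 18, plus the 4 highest kept and gained ones, of which 1 gained site is not reported here. For gene lists they are the genes with the highest-ranked sites and those with a kept site, while Nipbl, Pds5b and Cish were added after their values were seen. The members, lists and rules were chosen with earlier results of these data known.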

Additional observations from a re-analysis of the deposited data

How the results depend on the processing

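Of 109 recalculations under other settings, 67 concern results with a test, and 61 of those kept the direction of the mean. With 2 libraries a group no p can pass 0.05, and stability is judged by direction and size alone. The human minus mouse and promoter results kept the sign of their mean in every setting run. For promoters with at least 50% of a site covered, the 2 IAA libraries did not both share that sign. The difference between sites at and away from CTCF reversed under 6 settings: 1.51 points with at least 50% of a site covered, 1.59 with sites of at least 1 library without IAA, 2.72 with CTCF sites of at least 1 parental library, and when single libraries were left out, where it ranged from -2.85 to 1.68. Without IAA, leaving out replicate 1 gave 1.44 and leaving out replicate 2 gave 1.33. It was 1.68 without replicate 1 of those with IAA.

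The percent of mouse sites kept moved to 2.14% at a q-value of 0.001 or less. The percent of human sites kept moved to 19.2% with at least 50% of a site covered, 75.9% with lists of equal length and 30.4% with sites of at least 1 library without IAA, and ranged from 34.3% to 50.7% with libraries left out. The number of sites lost was 7927 at a q-value of 0.001 or less, 752 with lists of equal length, 8140 at equal numbers of human peaks and 33162 with sites of at least 1 library, fewer or more sites being tested in each, and 17420 to 30574 with libraries left out. Gained sites numbered 372 with 50% coverage, 544 with lists of equal length, 458 at equal numbers of human peaks, and 236 to 1321 with libraries left out. The promoter difference was 15.9 points without replicate 2 of the IAA libraries and 2.005 without replicate 1.

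The replicate block gave the same log2 changes, -3.60 for mouse peaks and -1.26 for human peaks (exact sign-flip permutation p = 0.5), and cannot apply to percents kept. The replicate numbers were not treated as pairs because the labels do not say what they share. Differences in site presence between replicates correlated at -0.03 (mouse) and 0.04 (human) between conditions. That value compares single sites, so it cannot show whether a replicate number shares an effect on a whole library. The alternatives outside the kept bins, and 2 of those without multi-copy sites, were chosen after seeing the data. With lists of equal length, no site lay away from CTCF, so that difference had no value.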
